A study of Homo sapiens with 6 samples.

Results

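Keratins are the intermediate filament proteins of epithelial cells, and this account covers the 55 human keratin genes in 6 CUT&RUN peak lists. The members are the protein-coding genes of the RefSeq GRCh38 table whose symbol is KRT, a number and at most 1 letter from A to C, 55 of the 20033 protein-coding genes on chromosomes 1 to 22, X and Y. All 55 lie in clusters, 27 on chromosome 12 and 28 on chromosome 17. A peak was placed at a gene when it shared at least 1 bp with the gene body or with the 5 kb beyond either end.

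CUT&RUN releases and sequences the DNA around an antibody-bound protein. MYT1L, a zinc-finger transcription factor of neurons, was targeted in 4 libraries, and 2 control libraries used IgG, which recognises no chromatin protein, to measure background. All 6 came from H1, an established human embryonic stem cell line labelled WT, at day 30, and no treatment distinguished them. The design text describes the cells as cortical interneurons made from the stem cells, while the cell type label names the stem cells themselves. The files hold occupancy and no expression, so neither identity could be checked against marker genes. Nothing in the labels says that the replicates came from separate differentiations, so the spread between libraries may be technical.

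Keratins assemble as pairs of a type I (acidic) and a type II (basic or neutral) protein. The type I genes lie on chromosome 17, except KRT18, and the type II genes on chromosome 12. KRT8, KRT18 and KRT19 are made in single-layered epithelia and early embryonic epithelium, and the others mostly in stratified epithelia, hair and nail. Neurons do not build keratin filaments, and MYT1L is described in the literature mainly as a repressor of genes of non-neuronal lineages.

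Of the 55 keratin genes, 3 (5.45%, 95% Wilson interval 1.87% to 14.9%) held a reproducible region, that is, overlapping MYT1L peaks from at least 3 of the 4 libraries. Among all protein-coding genes the share was 50.3%. It was 46.2% among the 12123 genes no shorter than the shortest and no longer than the longest keratin gene. Length was bounded there but not matched: the median was 16.3 kb for those genes and 6.43 kb for keratin genes. The 3 keratin genes were KRT8 and KRT18, which shared 1 region, and KRT10. A further 2 genes, KRT72 and KRT33A, had a region in 2 libraries, 11 genes had only regions found in a single library, and 39 had no peak. At least 1 MYT1L peak was thus found at 16 keratin genes (29.1%), against 84.1% of all protein-coding genes. No region at a keratin gene had peaks in all 4 libraries, whereas 5437 of the 20033 protein-coding genes had such a region. An IgG peak lay at 1 keratin gene, KRT86 (1.82%), against 4.16% of all protein-coding genes. At 0 of the 55 did peaks cover more of the window in every MYT1L library than in both IgG libraries, against 32.2% of all protein-coding genes. None of the 3 reproducible genes had an IgG peak, and the share of all genes with a reproducible region free of IgG peaks was 48%. The interval covers counting error only and treats genes as independent, although KRT8 and KRT18 count through 1 region. No test was run over the members.

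**Figure D1:**
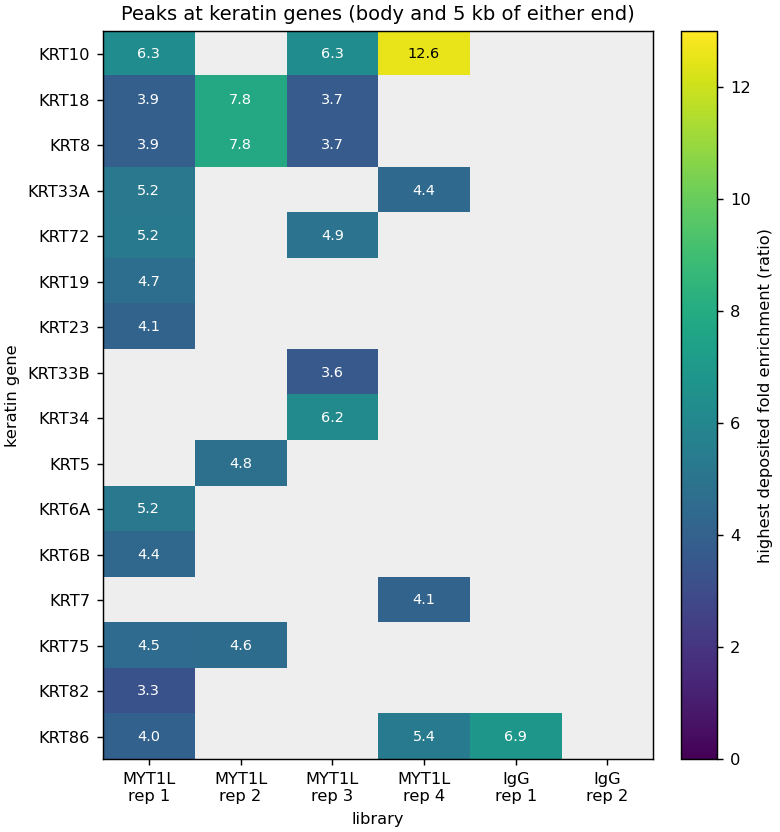
Highest fold enrichment, as deposited, of the peaks at each keratin gene (rows) in each library (columns), for the 16 genes with any peak; grey cells have no peak. KRT10, KRT18 and KRT8 had peaks in 3 MYT1L libraries, KRT33A and KRT72 in 2 that overlapped, and the only IgG peak was at KRT86. KRT75 and KRT86 had peaks in 2 MYT1L libraries at separate places.

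KRT8 (gene ID 3856, chr12:52897191-52949860) and KRT18 (gene ID 3875, chr12:52948855-52952906) encode the partner keratins of simple epithelia. The genes overlap by 1006 bp, and their shared region, chr12:52949093-52949462, lay in that overlap. Its fold over the local background was 3.92 in MYT1L replicate 1, 7.83 in replicate 2 and 3.73 in replicate 3. Replicate 4 and both IgG libraries had no peak there. Replicate 2 was therefore high, replicates 1 and 3 were near each other, and the mean was 5.16 ± 2.31 (SD, n = 3).

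The peaks rested on few DNA fragments: an estimated 13, 14 and 11 fragments covered the summit in replicates 1 to 3, over local backgrounds of 2.57, 0.917 and 2.22. Within their own lists, 14.4%, 90.7% and 4.57% of peaks had a lower fold. The peak was thus among the stronger in replicate 2 and among the weakest in replicate 3. The mean fold was above that of 23.6% of the 6347 regions found in 3 libraries. All 3 peaks shared 103 bp, with summits 320 to 540 bp inside the low-coordinate end of KRT18. Peaks covered 218, 271, 211 and 0 bp of the KRT8 window in MYT1L replicates 1 to 4 and 0 bp in both IgG libraries. The groups overlapped because replicate 4 had no peak. The mean difference was 175 bp (two-sided exact permutation test, p = 0.333, where 4 against 2 libraries can reach 0.0667 at best), and the KRT18 window gave the same values from the same peaks. It was 67.8 bp when only peaks with a −log10 q of at least 5 were kept.

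KRT19 (gene ID 3880, chr17:41523617-41528308), a type I keratin of simple epithelia that lacks the usual tail domain, had a peak in MYT1L replicate 1 only. It lay at chr17:41527841-41528214, with a fold of 4.70 and an estimated 17 fragments over a background of 2.83. Its summit was 357 bp inside the high-coordinate end of the gene. Peaks covered 374 bp of the window in replicate 1 and 0 bp in the other 5 libraries, a mean difference of 93.5 bp (exact permutation test, two-sided, p = 1).

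KRT10 (gene ID 3858, chr17:40818117-40822614), the type I keratin of the upper epidermis, held the strongest keratin region, chr17:40818804-40819159. The fold was 6.35 in MYT1L replicate 1, 6.34 in replicate 3 and 12.6 in replicate 4, with no peak in replicate 2 or in either IgG library. Replicate 4, without a peak at KRT8 and KRT18, was here the highest, with an estimated 26 fragments against 13 and 12. The mean fold was 8.41 ± 3.58 (SD, n = 3), above that of 93.7% of the 6347 regions found in 3 libraries. The summits fell within 43 bp of each other, 851 to 894 bp inside the low-coordinate end of KRT10. KRT10 is transcribed towards that end, so the region lay in the far part of the gene, 3.41 kb from the window around its start.

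The same region lay at the start of KRT10-AS1 (gene ID 147184), a long noncoding RNA gene at chr17:40819145-40836274 on the opposite strand. The replicate 4 peak reached past that start by 14 bp, and the peaks of replicates 1 and 3 ended 44 and 47 bp before it. The summits were 134 to 177 bp before that start. The window from 250 bases before to 50 after the start is printed because it is the keratin-linked sequence that the peaks covered. It is from RefSeq, GRCh38.p14, chr17:40818895-40819194, plus strand, and capitals mark the 204 bases that lay under the peaks of all 3 libraries.
KRT10-AS1: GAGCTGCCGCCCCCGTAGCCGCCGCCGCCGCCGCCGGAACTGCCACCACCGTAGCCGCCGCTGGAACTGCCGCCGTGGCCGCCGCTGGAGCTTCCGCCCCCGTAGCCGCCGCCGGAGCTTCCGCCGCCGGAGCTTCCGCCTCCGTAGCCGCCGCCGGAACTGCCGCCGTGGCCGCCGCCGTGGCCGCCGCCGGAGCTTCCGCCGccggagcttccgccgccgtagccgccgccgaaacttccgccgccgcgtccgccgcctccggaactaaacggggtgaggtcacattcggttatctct
All 3 summits were inside this window. It was 76.7% G and C and held 54 CpG, against medians of 58.7% and 14 over all 35116 promoter windows of the table, and it held the triplet GCC 44 times. Whether the composition or the repeats affected the mapping of reads was not tested.

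RefSeq promoter windows were matched for 34 of the 55 keratin genes, 38 windows in all. None was touched by a peak of any of the 6 libraries. Of the 16 keratin genes with a MYT1L peak, 8 had no matched window, KRT18, KRT19, KRT7, KRT86, KRT6A, KRT6B, KRT72 and KRT23, so their starts were not examined in this way. Of the 22198 windows of protein-coding genes, between 21.9% and 56.1% were touched in a MYT1L library, 0.419% and 1.23% in the IgG libraries, and 37.5% overlapped a reproducible region. The nearest peak to a keratin window was 140 bp away, in MYT1L replicate 2 at KRT5, the type II keratin of basal cells. The windows of KRT10 and KRT8 are printed for contrast with the window above, as windows around a start of genes whose reproducible region lay outside them. Both are on the minus strand, from RefSeq, GRCh38.p14, at chr17:40822565-40822864 and chr12:52926420-52926719. Capitals mark AAGTT, the core sequence known for the MYT1 family, or its reverse complement AACTT.
KRT10: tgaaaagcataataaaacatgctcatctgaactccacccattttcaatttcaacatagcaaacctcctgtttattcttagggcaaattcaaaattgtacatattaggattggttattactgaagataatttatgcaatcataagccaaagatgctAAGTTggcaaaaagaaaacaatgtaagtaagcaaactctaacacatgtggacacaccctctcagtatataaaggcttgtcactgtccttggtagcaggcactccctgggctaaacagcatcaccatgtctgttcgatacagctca
KRT8: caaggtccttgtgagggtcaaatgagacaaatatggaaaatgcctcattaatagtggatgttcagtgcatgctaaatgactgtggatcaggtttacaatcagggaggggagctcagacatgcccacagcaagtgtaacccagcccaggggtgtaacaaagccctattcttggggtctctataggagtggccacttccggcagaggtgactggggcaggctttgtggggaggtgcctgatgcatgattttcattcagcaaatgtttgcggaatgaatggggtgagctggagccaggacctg
The KRT10 window held 1 match (AAGTT), the KRT8 window held none, and the KRT10-AS1 window held 1 (AACTT), at position 236 from its 5′ end and outside the bases under all peaks. Of all promoter windows of this length, 34.0% held a match on either strand, so a match is common. The KRT8 window marks a start inside the gene, 22.4 kb from the region shared with KRT18. The summits of that region were 465 to 685 bp inside the high-coordinate end of KRT8, which for this minus-strand gene is its 5′ end, and no window for that start was used here.

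**Figure D2:**
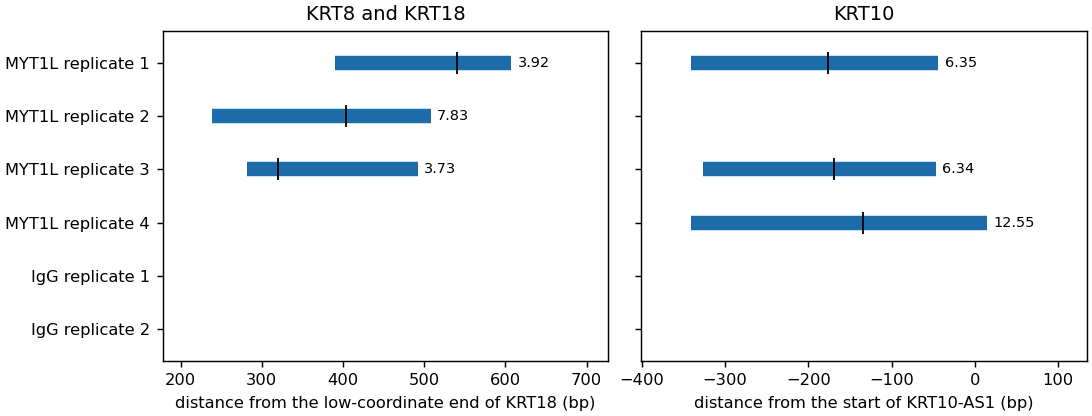
Peaks (bars) and summits (ticks) by library at the KRT8 and KRT18 locus, in bp from the low-coordinate end of KRT18, and at KRT10, in bp from the start of KRT10-AS1; numbers are the deposited fold. Each locus had peaks in 3 MYT1L libraries and none in IgG, and the summits were spread over 220 bp at KRT8 and KRT18 and over 43 bp at KRT10.

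The simple-epithelium genes were set against the other keratins. A reproducible region was found at 2 of 3 (KRT8 and KRT18, by 1 shared region) and at 1 of 52 others (KRT10, 1.92%), against 50.3% of all genes, a difference of 64.7 percentage points. All 3 simple-epithelium genes had a peak in at least 1 MYT1L library, as did 13 of the 52 others (25%) and 84.1% of all protein-coding genes. By library, 3, 2, 2 and 0 of the 3 had a peak in MYT1L replicates 1 to 4, and 9, 2, 4 and 4 of the 52 others, where 68.0%, 43.0%, 57.3% and 77.6% of all protein-coding genes had one. The contrast thus rested on replicates 1 to 3 and on 1 locus. When only peaks with a −log10 q of at least 5 were kept, the region at KRT8 and KRT18 was lost, KRT10 remained as the only reproducible gene, and the difference turned to -1.92 points. Cutting each MYT1L list to the length of the shortest gave -1.92 points as well.

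The remaining keratins were grouped by where they are made. Among the other keratins of simple or transitional epithelia, KRT7 had a peak in replicate 4 (fold 4.15), KRT23 in replicate 1 (fold 4.12), and KRT20 and KRT80 had none. Of the basal layer keratins, KRT5 had a peak in replicate 2 (fold 4.82), while its partner KRT14 and KRT15 had none. Of the 5 keratins induced by stress and wounding, KRT6A and KRT6B had a peak in replicate 1 (folds 5.20 and 4.41) and KRT6C, KRT16 and KRT17 had none. KRT6A, KRT6B and KRT6C are near-identical copies, and whether reads were split between them was not tested.

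Apart from KRT10, none of the 7 suprabasal keratins of the epidermis had a peak, nor had any of the 6 mucosal and corneal keratins, which include KRT4 and KRT13 of the oral and oesophageal lining. Among the 9 keratins of the inner root sheath and companion layer of the hair follicle, KRT72 had overlapping peaks in replicate 1 (fold 5.25) and replicate 3 (fold 4.95), and KRT75 had separate peaks in replicates 1 and 2 (folds 4.52 and 4.58). Of the 11 type I hair keratins, KRT33A had overlapping peaks in replicate 1 (fold 5.20) and replicate 4 (fold 4.44). They overlapped only at their edges (chr17:41346911-41347172 and chr17:41346576-41346925), with summits 328 bp apart. The neighbours of KRT33A, KRT33B and KRT34, had peaks in replicate 3 (folds 3.61 and 6.20). Of the 6 type II hair keratins, KRT82 had a peak in replicate 1 (fold 3.25) and KRT86 had separate peaks in replicates 1 and 4 (folds 4.02 and 5.38). KRT222, a type I gene in none of these groups, had no peak. The hair keratins are also close copies of one another.

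Across libraries the keratin genes had a peak less often than other genes in each MYT1L library. In replicates 1 to 4, 12, 4, 6 and 4 keratin genes had a peak, or 21.8%, 7.27%, 10.9% and 7.27%, below the shares of all genes given above. In IgG replicates 1 and 2 it was 1 and 0 keratin genes, against 1.61% and 2.90% of all genes. Replicate 4 had the most peaks of any list (30086) and 4 keratin peaks, while replicate 1, with 27926, had 11. The MYT1L lists held 12310 to 30086 peaks and the IgG lists 976 and 998. The lowest background shared by the peaks of a list, a rough measure of depth, was 0.420 to 1.18 fragments over a base in MYT1L and 0.190 to 0.330 in IgG libraries, so depth cannot be told apart from the antibody.

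**Figure D3:**
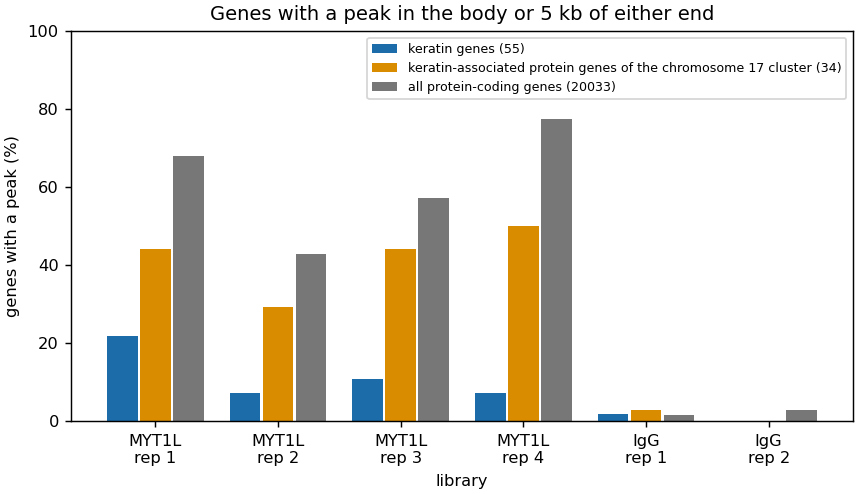
Percent of the 55 keratin genes, of the 34 keratin-associated protein genes of the chromosome 17 cluster and of all 20033 protein-coding genes with a peak in the gene body or 5 kb of either end, by library. In the 4 MYT1L libraries keratin genes had 7.27% to 21.8% and all genes 43.0% to 77.6%.

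Measured per length, the keratin windows (0.994 Mb) held 11.1, 3.02, 5.03 and 4.02 peaks per Mb in MYT1L replicates 1 to 4. These densities rested on only 11, 3, 5 and 4 peaks. The windows of all protein-coding genes held 13.0, 6.29, 9.31 and 15.3, and the chromosomes as a whole 9.05, 3.99, 6.14 and 9.75. Keratin windows were thus below gene windows in all 4 libraries, and below the genome-wide density in replicates 2 to 4 but not in replicate 1. The 23 MYT1L peaks there had an estimated 7 to 26 fragments at the summit (median 12), 15 of them had a fold below the median of their own list, and 13 had a −log10 q below 5. Summits fell inside the gene for 21 and within 1 kb of a gene end for 15. Of the 17 regions they formed, 13 (76.5%) were found in 1 library, 7 of these in replicate 1, against 58.1% of all 49028 regions. The Wilson interval of the keratin share, at the level used above, was 52.7% to 90.4%. It contained the share of all regions, so the difference was within counting error. Within the 5 kb limit, the MYT1L peak farthest from its gene was 1546 bp away at KRT82. The nearest peaks outside every keratin window were those of 3 MYT1L libraries 6135 to 6259 bp from KRT222 (folds 8.94, 7.95 and 4.59), towards the neighbouring gene SMARCE1.

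The clusters differed in what lay between the keratin genes. On chromosome 12, 784 kb from KRT80 to KRT18 held no protein-coding genes other than keratins and 1 reproducible region, the one at KRT8 and KRT18 at the cluster's edge. This was 1.28 per Mb, against 4.07 per Mb on the whole chromosome, and each flanking 1000 kb held 9. The median keratin gene on chromosome 12 lay 269 kb from a reproducible region. On chromosome 17, 970 kb from KRT222 to KRT17 held 7 reproducible regions (7.22 per Mb, against 7.26 on the chromosome). Of these, 6 fell in the 322 kb that carry 34 genes of keratin-associated proteins, which fill the matrix between keratin filaments in hair, and no keratin gene. The remaining 648 kb, with all 28 keratin genes, held the region at KRT10 alone, or 1.54 per Mb.

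The keratin-associated protein stretch had its regions at KRTAP4-9, KRTAP4-11, KRTAP4-12, KRTAP4-6 and KRTAP9-1 and 13432 bp from KRTAP9-2. A peak of IgG replicate 1 overlapped the region at KRTAP9-1. Those at KRTAP4-6 (fold 7.06 ± 1.59, SD, n = 4) and KRTAP4-11 (6.76 ± 1.57, SD, n = 4) had peaks in all 4 MYT1L libraries. These genes are near-identical tandem copies, and how reads that fit several copies were handled is not given in the sources used here. In MYT1L replicates 1 to 4, 15, 10, 15 and 17 of the 34 genes had a peak (44.1%, 29.4%, 44.1% and 50%). These shares lay above those of the keratin genes and below those of all protein-coding genes in each library, and 1 of the 34 (2.94%) had a peak in IgG replicate 1. Over all 55 keratin genes the median distance to a reproducible region was 199 kb, and 46 (83.6%) lay over 50 kb away, against 4.62 kb and 27.4% for all protein-coding genes.

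**Figure D4:**
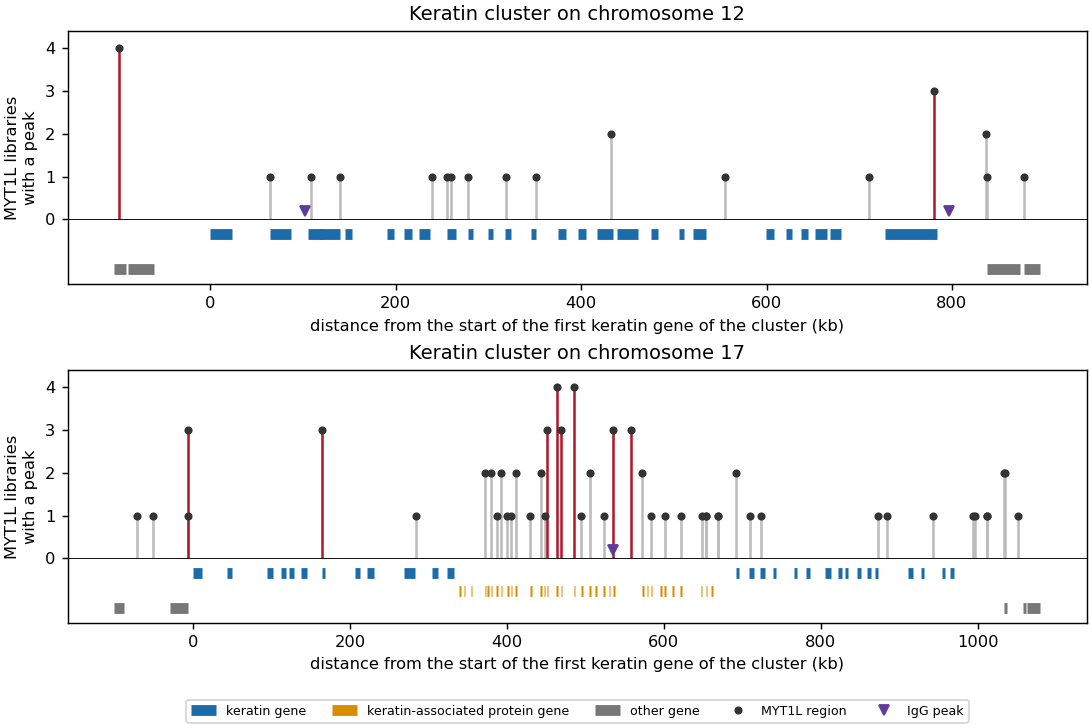
Regions of MYT1L peaks along both keratin clusters, by the number of MYT1L libraries with a peak (height; red stems mark at least 3) and by distance in kb from the first keratin gene, with IgG peaks as triangles and genes as bars below. The chromosome 12 cluster has 1 red stem, at KRT8 and KRT18, and the chromosome 17 cluster has 1 at KRT10 and 6 among the keratin-associated protein genes.

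Other genes of epithelial structure and of intermediate filaments were counted in the same way, from lists written with earlier results of these data known. A reproducible region was found at 6 of 12 cytoplasmic intermediate filament genes other than keratins (50%). Those with the highest folds were BFSP1 (7.49 ± 1.01, SD, n = 3), the neurofilament gene NEFL (6.36 ± 1.14, SD, n = 4), SYNM (6.27 ± 2.60, SD, n = 3) and INA (5.78 ± 0.726, SD, n = 4). Such a region was also found at all 3 lamin genes and at 6 of 18 epithelial regulators and adhesion genes (33.3%). Of 20 genes of desmosomes and hemidesmosomes, which anchor keratin filaments at the membrane, 9 had a region (45.0%). Of the desmosome and hemidesmosome genes, 8 had a reproducible region without an IgG peak. Among these the highest fold was at DSP, for the plakin that binds keratin filaments (10.2 ± 3.04, SD, n = 3). Of 13 genes of the cornified envelope, 3 had a region (23.1%), and of all 94 keratin-associated protein genes 11 (11.7%), 9 of them by a region without an IgG peak. Against the background of 50.3%, keratins had the lowest share of these lists. Gene length was not matched between the lists: the median was 828.5 bp for keratin-associated proteins, 6.43 kb for keratins, 8.81 kb for cornified envelope genes and 57.5 kb for lamins.

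**Figure D5:**
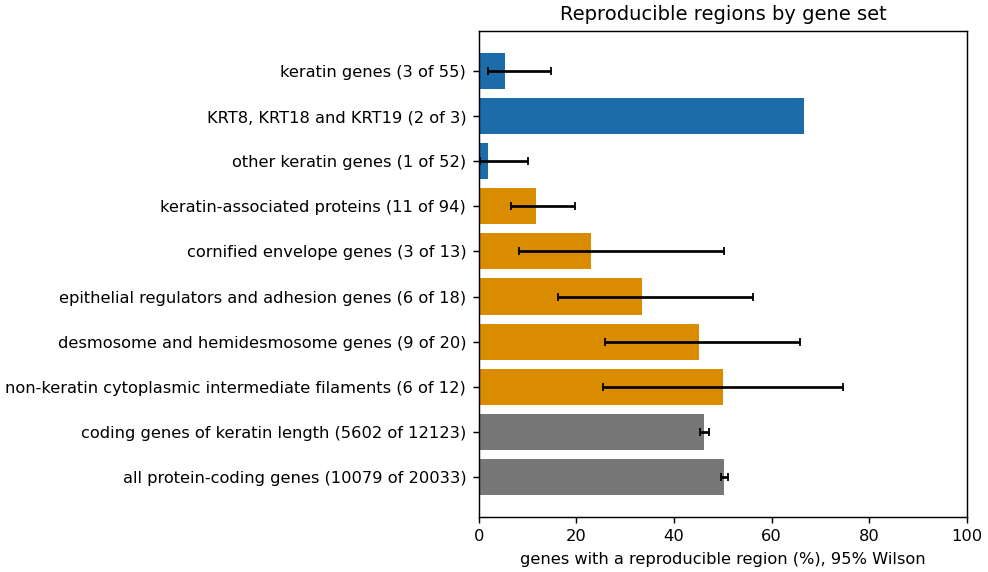
Percent of genes with a reproducible MYT1L region in each gene set, with the counts in the labels and 95% Wilson intervals. The intervals cover counting error only and treat genes as independent, although some genes share a region, as KRT8 and KRT18 do. The bar for KRT8, KRT18 and KRT19 has no interval because its 2 genes count through 1 shared region. The share was 5.45% for keratin genes and 50.3% for all protein-coding genes.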

How the data were processed

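Peaks were called by the submitters with MACS2 on hg38, per the submitters' processing notes. Version, aligner, control and thresholds are not given in the sources used here. There was 1 deposited list per library, with a deposited fold enrichment (a ratio), −log10 p, −log10 q and display score for each peak. These are the authors' values. Single peaks were ranked within their own list. The fold of a region was also averaged over its libraries, although depth differed between the lists. Coordinates are counted from 1. Replicate numbers are those of the sample titles; peak names in the MYT1L lists are numbered 1 higher.

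MYT1L peaks that overlapped by 1 bp were joined into 49028 regions, and bedtools 2.31.1 gave an identical set (0 differing). Gene placement was tested on planted peaks and recovered at 200 of 200 genes. Gene positions are from RefSeq GRCh38.p14. Fragments at a summit were estimated from fold and −log10 p with the caller's formulas, which gave whole numbers within 0.001 on the −log10 p scale for 100% of at most 1500 peaks tried per list. Covered length was compared by exact permutation over 15 splits (Python 3.11.15, scipy 1.17.1). Every gene with a reproducible region, and KRT8, KRT18 and KRT19, was described, and genes with weaker regions were named with their fold. Members and lists were chosen with earlier results of these data known. Alternatives changed the window, the −log10 q limit, the number of peaks, the number of libraries and the background genes.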

Additional observations from a re-analysis of the deposited data

Results flagged for a closer look

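At KRT19, MYT1L replicate 1 stood apart from the other 3 MYT1L libraries, with 374 bp of the window under a peak against 0 bp in each of the others. Such a gap flags about 1 in 20 groups of 4 by chance when values vary continuously, which these do not. With 0 bp in the other 3 libraries the flag was fixed in advance. Any gene with a peak in a single library shows it, so the flag adds nothing to that peak.

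In IgG replicate 1 a peak with a fold of 6.90 lay 3527 bp from KRT86, and no MYT1L peak overlapped it. It was flagged as signal in a control library at a keratin gene, with an estimated 10 fragments at the summit.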

How the results depend on the processing

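All alternatives were planned. Keeping peaks of −log10 q 5 or more left 1 keratin gene with a reproducible region in place of 3, and 9 in place of 16 with any MYT1L peak; cutting the MYT1L lists to the length of the shortest left 1 and 8. Asking for all 4 libraries left 0 reproducible genes, asking for 2 gave 5, and a 10 kb window gave 4. Leaving out a MYT1L library gave 3 to 5 (5 without replicate 2) and 11 to 15 with any peak. A reproducible region then needed peaks in 2 of the remaining 3 libraries, a looser rule than 3 of 4. The count of 1 gene with an IgG peak was 0 with a 1 kb window, and 0 to 1 without 1 IgG library. The excess of KRT8, KRT18 and KRT19 over the other keratins, 64.7 points, turned to -1.92 under the stricter q limit and to -1.92 with lists of equal length. Requiring all 4 libraries gave 0, and the range was 60.9 to 64.7 without 1 MYT1L library, where 2 of 3 libraries sufficed. The shortfall of keratins against all genes, -44.9 points, kept its direction in all 15 alternatives. Its values were -29.5 under the stricter q limit, -34.1 with lists of equal length, -58.2 for 2 libraries, -27.1 for 4, and -56.2 to -44.1 without 1 MYT1L library. Each of these settings changes how many peaks or libraries count, for keratins and background alike. The covered length at KRT19, 93.5 bp, was 0 without MYT1L replicate 1, and 0 to 124.7 over the fits that left out a library. The covered length at KRT8 and KRT18, 175 bp, was 67.8 bp under the stricter q limit and with lists of equal length (two-sided exact permutation test, p = 1 for both). With the replicate block on numbers 1 and 2 the differences were 244.5 bp at KRT8 and KRT18 and 187 bp at KRT19 (exact permutation test by sign, two-sided, p = 0.5 and 1); the labels do not say that a number marks a shared culture. The covered-length test cannot pass 0.05 in this design. Peaks at keratin genes rested on 7 to 26 fragments, so weaker occupancy may have gone uncalled. The lowest occupancy that could be called there was not measured.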

Other observations

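KRT8 and KRT18 have many pseudogenes scattered over the genome, most of them copies of the spliced RNA, and these copies carried peaks although the parent genes had peaks only in their shared overlap. Of 52 KRT8 pseudogenes, 30 (57.7%) had a MYT1L peak in their body, and of 68 KRT18 pseudogenes 24 (35.3%). Among 4048 pseudogenes of like length (899 to 2016 bp) the share was 12.7%. Length was bounded there but not matched: the median was 1728.5 bp for KRT8 pseudogenes, 1388 bp for KRT18 pseudogenes and 1220 bp for those of like length. In MYT1L replicates 1 to 4, 18, 8, 10 and 13 KRT8 pseudogenes had a peak, or 34.6%, 15.4%, 19.2% and 25%, against 7.68%, 3.73%, 5.88% and 6.45% of pseudogenes of like length. Neither IgG library had a peak in any of them, against 0.766% and 0.667% of pseudogenes of like length.

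Reproducible regions lay in 3 KRT8 pseudogenes (5.77%) and in 0 of the 68 KRT18 pseudogenes, against 3.04% of pseudogenes of like length. KRT8P37 on chromosome 10 (8513654 to 8514253, fold 5.02 ± 0.769, SD, n = 4) and KRT8P50 on chromosome 15 (42801191 to 42801756, fold 4.98 ± 0.473, SD, n = 4) had peaks in all 4 MYT1L libraries, and KRT8P5 on chromosome 18 had them in 3 (fold 5.22 ± 0.314, SD, n = 3). Copies of 1 gene share their sequence, so they are not independent sites, and how reads with several matches were placed is not given in the sources used here. This comparison was chosen after the values were seen, and its cause was not tested.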
